A study of Mus musculus with 141 samples.

Results

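Runx1, Runx2, Runx3, Cbfb, Myb, Gfi1, Ikzf1 and Ikzf2 are 8 core transcription factor genes of blood cell development. They were chosen by symbol and matched to the Ensembl identifiers of the deposited count table, where all 8 were found among 46041 nuclear-encoded gene rows. They were followed across single mouse bone marrow cells of 2 sorted populations. The basophil/mast cell progenitors (BMCP) were live, lineage-negative, Kit-positive and Sca1-negative cells with high integrin beta7 and high CD16/32. The granulocyte/monocyte progenitors (GMP) were live cells of the same lineage-negative, Kit-positive and Sca1-negative gate that were CD34-positive and CD16/32-high and fell outside the BMCP gate. Both came from 3 female C57BL/6 mice of no other stated genotype or treatment, and no label says which mouse gave which cell.

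The RUNX proteins bind DNA through the Runt domain and form a heterodimer with CBFB, which binds no DNA itself and raises the affinity of its partner. RUNX1 and MYB are needed for definitive blood formation, GFI1 is a zinc finger repressor needed for neutrophil development, and the Ikaros family of zinc finger proteins works largely with the NuRD chromatin remodelling complex. RUNX1 and GFI1 act in granulocyte progenitors, and Ikaros (IKZF1) is best known from lymphocytes.

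After filtering, 89 BMCP held 84242320 nuclear-encoded counts in all, with 96129 to 2416630 per cell, and 41 GMP held 55520835, with 130191 to 3688848 per cell. The median cell had 5440 genes with a read in BMCP and 7001 in GMP, and there were 7.48 nuclear-encoded counts per spike-in count in BMCP and 13.7 in GMP. Each population is 1 sample, and cells are not replicates. Levels are therefore given as summed counts scaled to a total of 1000000 nuclear-encoded counts (CPM) with 95% exact Poisson limits that cover counting error only, and differences are described by size, with no test and no replicate check. All 9 mast cell and basophil markers were at least 2-fold higher in BMCP, with a summed level per cell of 1410 to 82147 CPM in BMCP and 3.22 to 9498 CPM in GMP. The 7 neutrophil progenitor markers that reached 1 CPM were each lower by at least 2-fold, with a summed level of 1.05 to 2922 CPM in BMCP and 543 to 101682 CPM in GMP. The T and NK cell markers summed to 3.33 to 4418 CPM per cell in BMCP and 23.0 to 4427 CPM in GMP. Most of that sum was Nkg7, at 1185 CPM in BMCP against 1128 CPM in GMP, while Cd3d, Cd3g and Ncr1 had no read in either population. The B cell markers summed to 0 to 1079 CPM per cell in BMCP and 0 to 584 CPM in GMP, with Cd79b at 57.1 CPM in BMCP against 102 CPM in GMP and Ms4a1 without a read in either.

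The RUNX genes share a stretch of sequence at their distal promoters, which is shown because these 3 genes, alike there, differ in level. In the RefSeq promoter windows of GRCm38.p6, which run from 250 bases before a start site to 50 bases after it, the following 30 bases are read 5′ to 3′ along each gene's strand, and the capitals mark ACCACA, the reverse complement of the RUNX core word TGTGGT.
Runx1: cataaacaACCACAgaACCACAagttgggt
Runx2: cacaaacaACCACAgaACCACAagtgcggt
Runx3: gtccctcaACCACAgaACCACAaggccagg
They lie at chr16:92826025-92826054 on the minus strand, at chr17:44814583-44814612 on the minus strand and at chr4:135120503-135120532 on the plus strand. The first base lies 21 bases after the start site of Runx1, 16 after that of Runx2 and 142 bases before that of Runx3. A run of 18 bases, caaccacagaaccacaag, is identical in all 3. The single word TGTGGT, on either strand, occurs in 16.8% of the 32851 mouse windows of 300 bases. A pair of ACCACA words with 2 bases of any kind between them, a pattern chosen after these sequences were seen and searched on both strands, occurs in 0.0213%, which is 7 windows. These are the windows of Runx1, Runx2 and Runx3, that of Gm16225, which overlaps the Runx3 window on the opposite strand, and those of Gm15462, Olfr24 and Gm12236. Entries were found for 7 of the 8 genes, in 11 windows. Each window was also searched, on both strands, for the MYB words CAACTG and also CAACGG with TAACTG and also TAACGG, of which at least 1 occurs in 28.3% of all windows. The GATA words, AGATAA or else TGATAA, occur in 18.6%, and the Ikaros word TGGGAA in 25.6%. The windows of Cbfb, Myb, Gfi1 and Ikzf1 and the second windows of Runx1 and Runx3, 8 in all, held none of these words and no TGTGGT. The first window of Runx1 held 2 MYB words and that of Runx3 held 1 Ikaros word. A match is a description of the letters and not a binding site.

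At the level of the population, 4 of the 8 genes (Runx1, Ikzf1, Ikzf2 and Cbfb) were at least 2-fold higher in BMCP than in GMP on the log2(CPM + 1) scale, and 2 (Gfi1 and Myb) were at least 2-fold lower. Runx2 and Runx3 lay within 2-fold. All 8 reached 1 CPM. Among the 14554 genes with at least 1 CPM in either population, 25.8% passed 2-fold upward in BMCP and 21% downward. The median log2 ratio was 0.65 over the 8 genes and 0.04 over all of those genes. Without the 1 CPM limit the shares were 15.4% and 12.6% of 24346 genes. With 8 genes, neither count is read as particular to them. Scaled to spike-in reads, which moves the median of all genes to -0.76, the ratios of Ikzf2 and Cbfb were 0.75 and 0.35, and 2 of the 8 genes stood at least 2-fold higher.

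Runx1, on chromosome 16 (92601466 to 92826149, minus strand, GRCm38), encodes the RUNX protein of blood stem and progenitor cells. Single BMCP held 1.41 CPM at the lowest, 678 at the median and 2831 at the highest, and single GMP held 0, 121 and 1198. None of 89 BMCP and 3 of 41 GMP were at 0. The ranges overlap, but the BMCP median lies above the upper quartile of GMP, 282 CPM. Summed over cells, Runx1 stood at 813 CPM (807 to 820) in BMCP against 166 CPM (163 to 170) in GMP, a log2 ratio of 2.28. With each cell thinned to 200000 reads, which removes the difference in depth and keeps 86 BMCP and 40 GMP, 2 or more reads of Runx1 were found in 83 of 86 BMCP (96.5%, Clopper-Pearson 90.1 to 99.3) and in 31 of 40 GMP (77.5%, 61.5 to 89.2). Unthinned, the shares were 98.9% of BMCP and 85.4% of GMP.

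The background of such shares was read from genes that mark the other population. The neutrophil elastase gene Elane had 2 or more thinned reads in 2 of 86 BMCP and 10 or more in 0, which allows a share of up to 4.20%. The mast cell protease gene Gzmb had 2 or more in 1 of 40 GMP and 10 or more in 0, which allows up to 8.81%. Before thinning, the median cell held 893037 counts in BMCP and 1309890 in GMP.

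Runx3, on chromosome 4 (135120652 to 135177990, plus strand), encodes the RUNX protein best known from T cells and sensory neurons. It had at least 1 read in every kept cell, and gene counts cannot tell a low floor of reads at the locus from low expression, which limits what its low values and its share at 2 reads mean. Levels were 0.95, 14 and 1362 CPM (lowest, median and highest) in BMCP and 2.80, 56.6 and 659 CPM in GMP. The sums were alike, 156 CPM (153 to 158) in BMCP against 147 CPM (144 to 151) in GMP, a log2 ratio of 0.08 whose sign turned in 3 of the 11 processing alternatives. The median cell was lower in BMCP, and the highest cell was in BMCP. At 10 or more thinned reads the gene was found in 30 of 86 BMCP and 21 of 40 GMP, and those cells had a median of 384 CPM in BMCP against 289 CPM in GMP. In BMCP a smaller share of cells passed that threshold, and those that did held more.

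Runx2, on chromosome 17 (44495987 to 44814797, minus strand), encodes the RUNX protein that drives bone formation. Of 89 BMCP, 48 were at 0, with a median of 0 and a maximum of 994 CPM. Of 41 GMP, 12 were at 0, with a median of 4.34 and a maximum of 480 CPM. Sums were 56.6 CPM (55 to 58.3) in BMCP against 58.4 CPM (56.4 to 60.5) in GMP, a log2 ratio of -0.04 whose sign turned in 4 of the 11.

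Per kilobase of exon, a rough way to set levels of different genes side by side, the make-up of the family differed. Summed levels were divided by all annotated exon bases, whether used in these cells or not, which were 12025 for Runx1, 8837 for Runx2 and 5003 for Runx3. In BMCP, Runx1 stood at 67.6 CPM per kb, Runx3 at 31.1 and Runx2 at 6.41, so that Runx1 made up 64.3% of the summed level. In GMP, Runx3 stood first with 29.5 CPM per kb (59.1%), followed by Runx1 with 13.8 (27.7%) and Runx2 with 6.61 (13.2%). That order is the order of the sums. Before division by length, the median GMP held 121 CPM of Runx1 and 56.6 CPM of Runx3. The 18 GMP with 10 or more thinned Gata2 reads, described below, had summed levels of 251 CPM for Runx1 and 104 CPM for Runx3. The other 22 had 84.2 CPM and 188 CPM. Cell by cell, at 10 or more thinned reads, 36 of 86 BMCP held Runx1 without the other RUNX genes, 24 held Runx1 with Runx3, 12 held Runx1 with Runx2, 4 held all 3 and 7 held none. Of 40 GMP, 9 held Runx1 alone, 8 Runx3 alone, 11 Runx1 with Runx3, 6 Runx1 with Runx2 and 2 none.

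**Figure D1:**
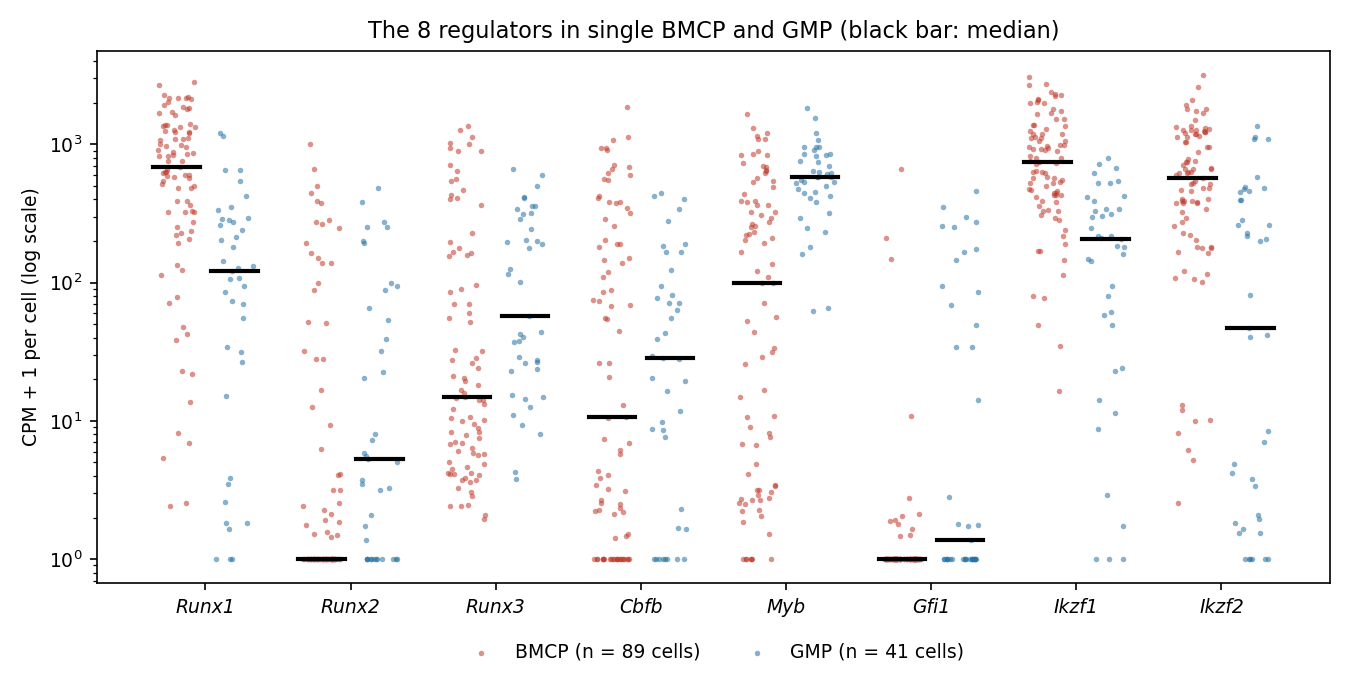
Level of the 8 regulators in each cell (CPM + 1, log scale), 89 BMCP left of 41 GMP for each gene, 1 point per cell and a bar at the median. Runx1, Ikzf1 and Ikzf2 sit high in nearly all BMCP, whereas Cbfb, Runx2 and Runx3 spread from 0 or near it to 1860, 994 and 1362 CPM in BMCP and to 443, 480 and 659 CPM in GMP.

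Cbfb, on chromosome 8 (105170674 to 105217989, plus strand), encodes the partner of all 3 RUNX proteins. Its sum was 201 CPM (198 to 204) in BMCP against 85.9 CPM (83.4 to 88.3) in GMP, a log2 ratio of 1.21, yet its median cell ran the other way, with 9.65 CPM in BMCP against 27.6 CPM in GMP. The lower median was seen in BMCP numbers 48 to 94, at 6.41 CPM, and not in numbers 1 to 47, at 31.6 CPM. The lowest and highest cells were at 0 and 1860 CPM in BMCP and at 0 and 443 CPM in GMP, and 22 of 89 BMCP and 8 of 41 GMP were at 0. At 2 or more thinned reads the share was lower in BMCP, 45 of 86 (52.3%, 41.3 to 63.2) against 28 of 40 GMP (70%, 53.5 to 83.4). At 10 or more it was nearly the same, 39 of 86 BMCP (45.3%, 34.6 to 56.5) and 18 of 40 GMP (45%, 29.3 to 61.5). The median level in the cells with 10 or more reads was 289 CPM in BMCP against 143 CPM in GMP. Cells with Runx1 often lacked its partner at 10 reads: 35 BMCP held both and 41 held Runx1 without Cbfb, and 13 GMP held both and 14 held Runx1 without Cbfb. At 2 reads, 44 BMCP held both and 39 held Runx1 without Cbfb, and 22 GMP held both and 9 held Runx1 without Cbfb. A transcript below either threshold is not shown to be absent.

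**Figure D2:**
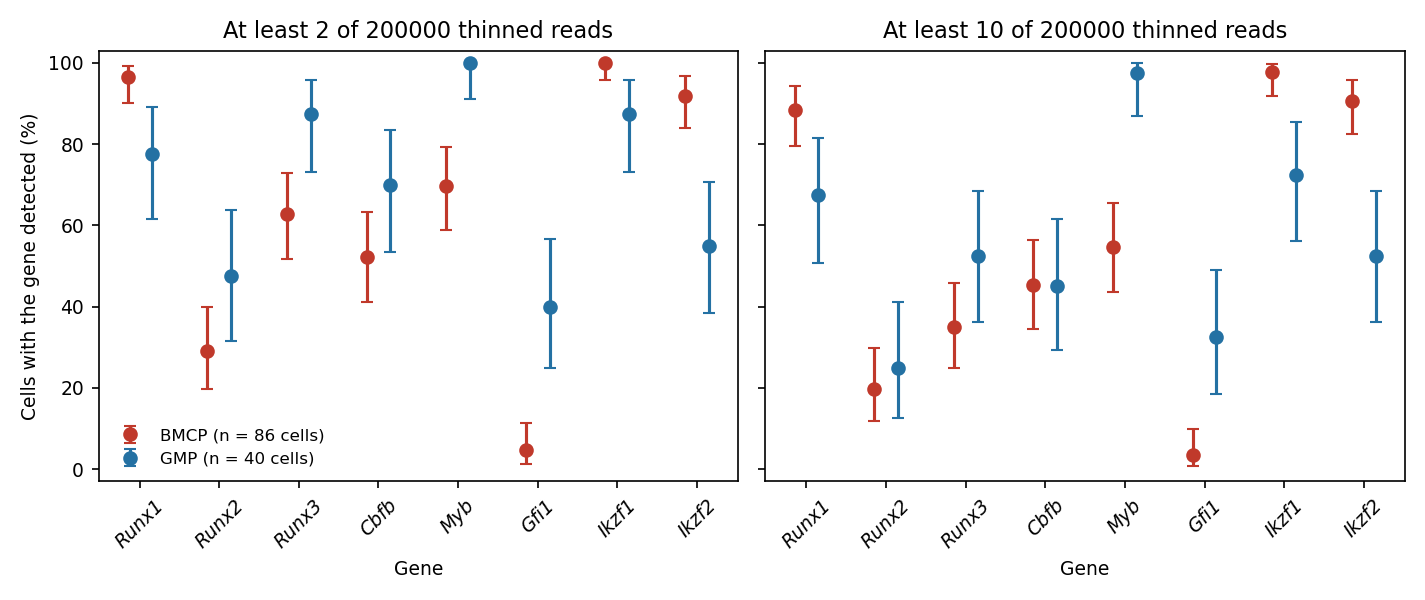
Percent of thinned cells (86 BMCP, 40 GMP, 200000 reads each) with 2 or more reads (left panel) or 10 or more reads (right panel) of each regulator, BMCP left of GMP, with exact Clopper-Pearson limits that cover counting error only. At 10 reads, Ikzf2 was found in 78 of 86 BMCP and 21 of 40 GMP, and Gfi1 in 3 of 86 BMCP and 13 of 40 GMP.

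Myb, on chromosome 10 (21124935 to 21160984, minus strand), encodes a transcription factor of proliferating progenitors. Single BMCP held 0, 98.4 and 1647 CPM (lowest, median, highest) and single GMP 61.6, 582 and 1833 CPM, and 7 BMCP and no GMP were at 0. The sums were 268 CPM (265 to 272) in BMCP against 631 CPM (624 to 637) in GMP, a log2 ratio of -1.23. Thinned, 2 or more reads were found in 60 of 86 BMCP (69.8%, 58.9 to 79.2) and in 40 of 40 GMP (91.2 to 100%). Its relative Mybl2, which acts in dividing cells, had 2 reads in all BMCP together, or 0.0237 CPM (0.00288 to 0.0858), and 48.6 CPM (46.8 to 50.5) in GMP. It reached 2 thinned reads in 0 of 86 BMCP, which allows a share of up to 4.20%, against 17 of 40 GMP. The proliferation gene Mki67 reached 2 reads in 7 of 86 BMCP, against 20 of 40 GMP, and 4 of 5 proliferation genes lay at least 2-fold below GMP, with summed levels per cell of 0 to 3045 CPM in BMCP and 0 to 2695 CPM in GMP. Their part in the level of Myb and Mybl2 was not tested.

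Gfi1, on chromosome 5 (107716657 to 107726036, minus strand), encodes the zinc finger repressor. Of the 8 genes it was at 0 in the most cells of both populations, 76 of 89 BMCP and 20 of 41 GMP, with a median of 0 and a maximum of 660 CPM in BMCP, against a median of 0.385 and a maximum of 455 CPM in GMP. The sums were 12.8 CPM (12 to 13.5) in BMCP against 56.6 CPM (54.6 to 58.6) in GMP, a log2 ratio of -2.06. BMCP replicate 74 held 48.8% of the BMCP reads, and without it the BMCP level was 6.59 CPM. At 2 or more thinned reads it was found in 4 of 86 BMCP (4.65%, 1.28 to 11.5) and in 16 of 40 GMP (limits 24.9 to 56.7%). Elane had 2 or more reads in 2 of the same 86 BMCP, but it stood at 7307 CPM in GMP, so its share is a loose guide for Gfi1. Of the BMCP, 3 had 10 or more Gfi1 reads, where Elane had none. Its paralog Gfi1b, a repressor of erythroid and megakaryocytic cells, was found in 11 of 86 BMCP and 4 of 40 GMP and stood at 45.3 CPM in BMCP against 13.9 CPM in GMP. Without GMP replicate 4 the GMP level was 7.87 CPM. Per kilobase, Gfi1b made up 86.1% of the pair in BMCP and 29.9% in GMP. No thinned cell of either population held 2 reads of both paralogs: of 86 BMCP, 4 held Gfi1, 11 Gfi1b and 71 neither, and of 40 GMP, 16 held Gfi1, 4 Gfi1b and 20 neither. With so few BMCP holding Gfi1 and so few GMP holding Gfi1b, no exclusion is read from this. Before thinning some cells had reads of both. BMCP replicate 75 had Gfi1 at 1.76 CPM and Gfi1b at 2.64 CPM, and GMP replicate 12 had 0.724 CPM and 128 CPM.

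Ikzf1, on chromosome 11 (11685003 to 11772926, plus strand), encodes Ikaros. It was counted in every BMCP, at 15.4, 737 and 3085 CPM, against 0, 205 and 794 CPM in GMP, where 3 cells were at 0. The sums were 899 CPM (893 to 905) in BMCP against 244 CPM (240 to 248) in GMP, a log2 ratio of 1.88. It reached 2 thinned reads in 86 of 86 BMCP (95.8 to 100%) and 35 of 40 GMP (87.5%, 73.2 to 95.8). Per kilobase it was the highest of the 8 in BMCP, at 156 CPM per kb, against 42.2 CPM per kb in GMP, where Myb was higher with 70.6.

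Ikzf2, on chromosome 1 (69531214 to 69687245, minus strand), encodes Helios, best known from regulatory T cells. Single BMCP held 1.56, 570 and 3167 CPM and single GMP held 0, 46.3 and 1346 CPM, with no BMCP and 6 GMP at 0. The sums were 694 CPM (689 to 700) in BMCP against 226 CPM (222 to 230) in GMP, a log2 ratio of 1.61. It reached 2 thinned reads in 79 of 86 BMCP (91.9%, 83.9 to 96.7) and 22 of 40 GMP (limits 38.5 to 70.7%). At 10 reads, 77 of 86 BMCP held both Ikaros genes, 7 Ikzf1 alone, 1 Ikzf2 alone and 1 neither, and 15 of 40 GMP held both, 14 Ikzf1 alone, 6 Ikzf2 alone and 5 neither.

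**Figure D3:**
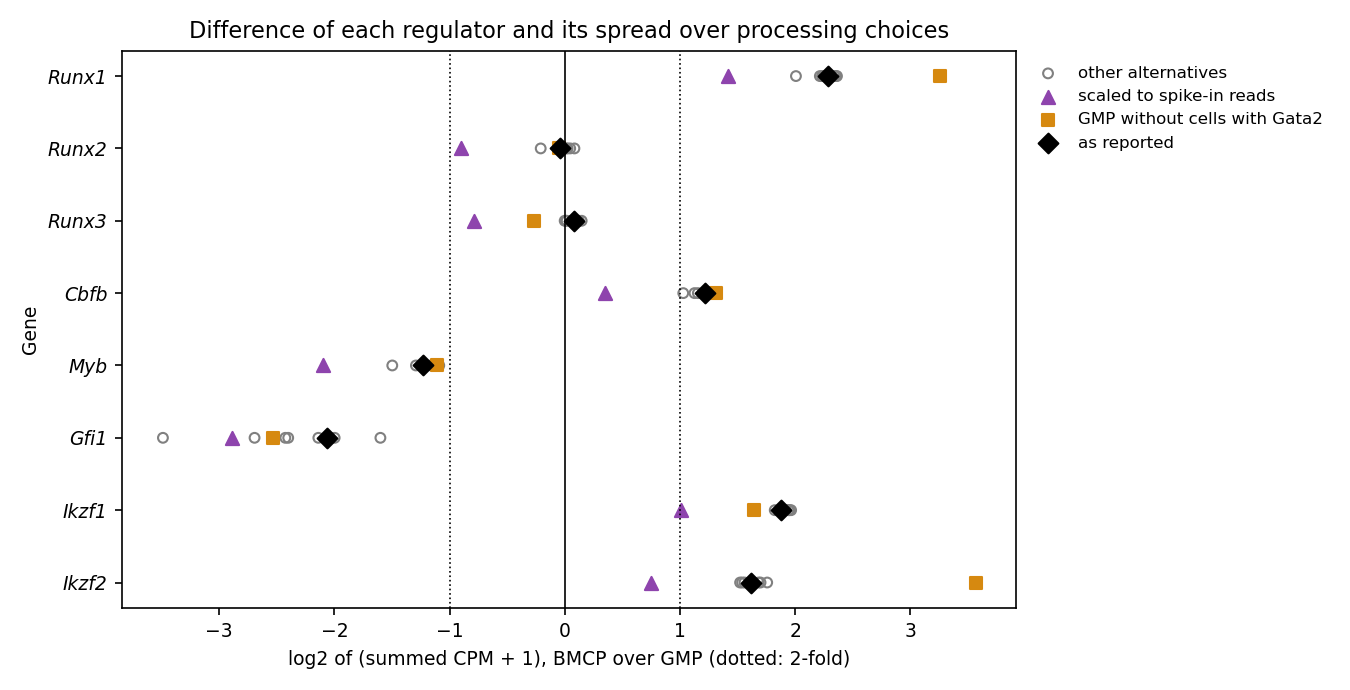
Log2 ratio of each regulator, BMCP over GMP, under the reported scaling and the 11 alternatives, with dotted lines at 2-fold in each direction. Black diamonds are the reported values, triangles the spike-in scaling, squares GMP without the cells with Gata2 and open circles the rest. Runx1, Ikzf1, Ikzf2 and Cbfb stay above 0 and Myb and Gfi1 below 0 in all 11, and Runx2 and Runx3 cross 0.

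The 2 blocks of BMCP numbers, 1 to 47 and 48 to 94, had close summed levels for most of the 8 genes. In numbers 1 to 47, Runx1 stood at 847 CPM, Ikzf1 at 955, Ikzf2 at 737, Runx3 at 147, Cbfb at 192, Runx2 at 50.4 and Myb at 223 CPM. In numbers 48 to 94, Runx1 stood at 793 CPM, Ikzf1 at 865, Ikzf2 at 669, Runx3 at 161, Cbfb at 205, Runx2 at 60.4 and Myb at 296 CPM. Without replicate 47, Runx2 stood at 31.7 CPM in numbers 1 to 47. Gfi1 differed most, with 4.13 CPM in numbers 1 to 47, or 0.0324 CPM without replicate 10, and 18 CPM in 48 to 94, or 8.10 CPM without replicate 74. Medians of single cells were further apart than the sums for Cbfb, at 31.6 CPM in numbers 1 to 47 and 6.41 CPM in 48 to 94. For Myb the medians were 37.9 CPM in numbers 1 to 47 and 210 CPM in 48 to 94. The GMP make up 1 block of their own in the table, and the effects of block and of population cannot be told apart.

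Runx1 and Ikzf2 varied together inside GMP. Over the 41 GMP the Pearson correlation of log2(CPM + 1) was 0.63 for Runx1 with Ikzf2, 0.53 for Runx1 with Gata2 and 0.54 for Ikzf2 with Gata2. Over the 89 BMCP these were 0.16, 0.07 and 0.04. Gata2 encodes a zinc finger factor of mast cell, basophil and stem cells. Of 40 thinned GMP, 18 held 10 or more Gata2 reads and 22 held fewer, with 2 cells at 5 to 9 reads. In the 18, Runx1 stood at 251 CPM and Ikzf2 at 408 CPM, against 84.2 CPM and 57.6 CPM in the 22. Gfi1 ran the other way, at 32.9 CPM in the 18, or 13.2 CPM without replicate 18, and 78.5 CPM in the 22, as did Ikzf1 (198 CPM in the 18, 287 CPM in the 22) and Runx3 (104 CPM in the 18, 188 CPM in the 22). Myb (681 CPM in the 18, 580 CPM in the 22), Cbfb (92.5 CPM in the 18, 80.1 CPM in the 22) and Runx2 (58.5 CPM in the 18, 58.6 CPM in the 22) differed less. The 18 cells also carried more of the mast cell and basophil markers, a list that includes Gata2 itself, with a summed median of 2088 CPM in the 18 and 131 CPM in the 22 once Gata2 was left out. Summed medians of the neutrophil markers were 36338 CPM in the 18 and 53295 CPM in the 22. Those of the monocyte and dendritic cell markers were 66.2 CPM in the 18 and 314 CPM in the 22, of the T and NK cell markers 715 CPM in the 18 and 1303 CPM in the 22, and of the B cell markers 1.03 CPM in the 18 and 118 CPM in the 22. Those of the erythroid and megakaryocyte markers were 20.3 CPM in the 18 and 2.77 CPM in the 22, and of the proliferation genes 1128 CPM in the 18 and 797 CPM in the 22, with median depths of 1374130 counts in the 18 and 1217110 in the 22. These groups were cut from the same cells by 1 gene, so the values are a description, and the part of these markers in them was not tested. Of the 40 GMP, 8 held 10 reads of both Gata2 and the proliferation gene Mki67, 10 of Gata2 alone, 9 of Mki67 alone and 13 of neither. The 17 GMP with 10 or more Mki67 reads held Runx1 at 231 CPM, Ikzf2 at 333 CPM and Ikzf1 at 185 CPM. The other 23 held them at 115 CPM, 146 CPM and 288 CPM. Myb (590 CPM in the 17, 657 CPM in the 23) and Cbfb (55.2 CPM in the 17, 109 CPM in the 23) ran against the Gata2 groups. The parts of Gata2 and Mki67 were not tested.

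**Figure D4:**
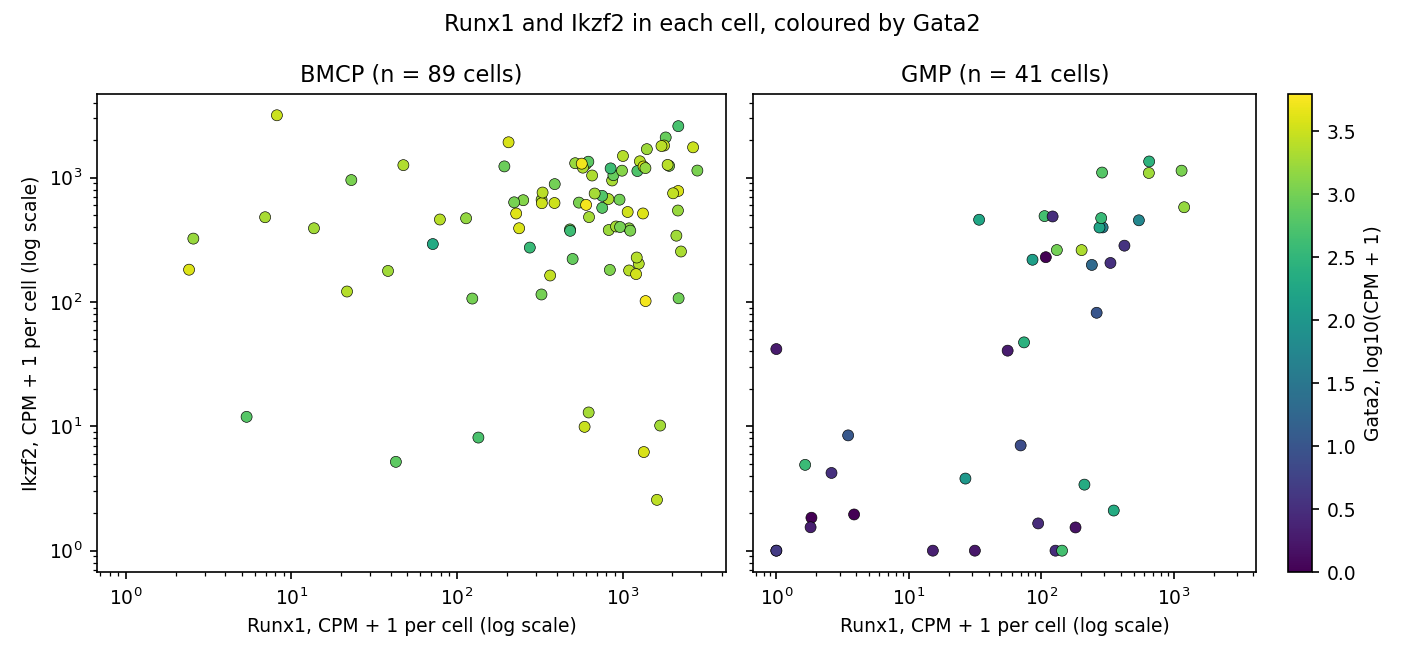
Runx1 against Ikzf2 in each cell (CPM + 1, both axes on a log scale), 89 BMCP in the left panel and 41 GMP in the right, coloured by log10 of Gata2 CPM + 1. In GMP the cells high for both genes are mostly the cells with more Gata2, and in BMCP nearly every cell is high for Gata2.

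Inside BMCP, the 20 cells with 10 or more thinned reads of the basophil protease gene Mcpt8 held Ikzf2 at 514 CPM, against 746 CPM in the other 66, and Runx3 at 227 CPM against 134 CPM. Replicate 3 held 34.1% of the Runx3 reads of the 20, and without it they stood at 159 CPM. Without replicate 63 the 66 stood at 110 CPM. The 20 Mcpt8 cells were spread unevenly over the blocks. The first block (1 to 47) gave 14 of them and the second (48 to 94) gave 6. The part of block in the Mcpt8 contrasts was not tested. The 30 cells with 10 or more reads of Car1, a carbonic anhydrase gene of the erythroid and megakaryocyte list, held Cbfb at 227 CPM against 186 CPM in the other 56, and 20 of the 30 reached 10 Cbfb reads against 19 of the 56. Without replicate 65 the Cbfb level of the 30 was 174 CPM, and without replicate 63 that of the 56 was 160 CPM.

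By the measure of likeness used, the correlation across 130 cells after each population's mean was removed, the 3 genes most like Runx1 were Malat1 (0.47), Ikzf2 (0.40) and Gata2 (0.35). For Ikzf2 they were Runx1 (0.40), Gata2 (0.40) and Lmo4 (0.39), and for Myb they were Adgrg1 (0.42), Eif4a-ps4 (0.35) and Pbdc1 (0.33). For Ikzf1 they were Gm42418 (0.46), Rsrp1 (0.31) and Luc7l3 (0.31). For Runx2 (Srsf10, Tbc1d9b, Hif1a), Runx3 (Rac1, Csnk1d, Patz1) and Cbfb (Pcf11, Ccndbp1, Cyb5a) the values ran from 0.25 to 0.32, and Gfi1, with a median of 0 thinned reads in both populations, was not compared. Within BMCP and within GMP, Runx1 stood at 0.46 and 0.48 with Malat1, but at 0.16 and 0.63 with Ikzf2 and at 0.07 and 0.53 with Gata2. Ikzf2 stood at 0.04 and 0.54 with Gata2. Runx3 with Csnk1d (0.36 and -0.01) and Cbfb with Pcf11 (0.45 and -0.04) held in BMCP only. The points share libraries and depth, and in counts this sparse no value of this ranking is read as a finding.

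Reads that overlap genes on the other strand could not be parted, since the protocol marks no strand. Such overlaps cover 6.26% of the exon bases of Myb, 5.87% of Runx2, 3.17% of Gfi1, 1.24% of Ikzf2 and 0.881% of Runx1, and none of Runx3, Cbfb and Ikzf1.

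The cofactors and partners of the 8 genes were read from lists. Of the RUNX cofactors, 10 of 11 reached 1 CPM, and 6 of them stood at least 2-fold higher in BMCP and 0 stood lower by that much, with a median log2 ratio of 1.15, against 25.8%, 21% and a median of 0.04 over all genes. Scaled to spike-in reads 1 stood higher and 1 lower, with a median of 0.30, and without the GMP that held Gata2, described above, 4 stood higher. Cbfa2t3, an ETO-family corepressor, stood at 276 CPM in BMCP against 90.3 CPM in GMP, Tle3 at 111 CPM in BMCP against 45.6 CPM in GMP and Tle4 at 119 CPM in BMCP against 49.6 CPM in GMP. Cbfa2t2 stood at 39.8 CPM in BMCP against 18.6 CPM in GMP, and at 11.3 CPM once GMP replicate 3 was left out. Tle2, also among the 6, stood at 63.8 CPM in BMCP against 0.0901 CPM in GMP, where it had 5 reads in 1 cell. Of the MYB relatives and coactivators, 7 of 8 reached 1 CPM, with 1 higher (the acetyltransferase gene Crebbp, 202 CPM in BMCP against 63.1 CPM in GMP), 2 lower (Mybl2, and Men1, which encodes menin, 38 CPM in BMCP against 142 CPM in GMP) and a median of 0.59, or -0.27 scaled to spike-in reads. Cdk6, a cyclin-dependent kinase gene, stood at 1737 CPM in BMCP against 1441 CPM in GMP.

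Of the GFI1B and GFI1 corepressor list, 8 of 9 reached 1 CPM, with 1 higher (Gfi1b), 1 lower and a median of 0.55, or -0.31 scaled to spike-in reads. The lower one, Rcor2, had all its GMP reads in replicate 45 and is not counted without it. Kdm1a, the demethylase that GFI1 recruits, stood at 82.7 CPM in BMCP against 44.9 CPM in GMP. Of the other Ikaros family genes and NuRD subunits, 12 of 13 reached 1 CPM, with 3 higher, 2 lower and a median of 0.58, or -0.29 scaled to spike-in reads. Over all genes 25.8% stood at least 2-fold higher in BMCP and 21% lower, and the counts of both lists are not read as particular to them. Chd3 stood at 141 CPM in BMCP against 29.3 CPM in GMP, Ikzf5 at 41.4 CPM in BMCP against 18.4 CPM in GMP, Mbd3 at 39.9 CPM in BMCP against 97.7 CPM in GMP and Rbbp7 at 135 CPM in BMCP against 313 CPM in GMP. The other higher gene, Ikzf4, rested on BMCP replicate 17, without which it stood at 0.192 CPM. Ikzf3, which encodes Aiolos, had 4 reads in BMCP and 2 in GMP.

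Textbook targets of RUNX and MYB, some of them known from other cell types, moved in both directions, with more lower than higher in BMCP. Over all genes 25.8% stood at least 2-fold higher in BMCP and 21% lower. Of the RUNX targets, 7 of 10 reached 1 CPM, with 2 higher in BMCP (Gzmb, 6516 CPM in BMCP against 1.03 CPM in GMP, and Zbtb7b, 8.39 CPM in BMCP against 1.04 CPM in GMP), 5 lower and a median of -2.10. That median is the value of Cd4, and over all 10 genes, without the 1 CPM limit, it was -0.88. The list does not part genes that RUNX proteins activate from genes they repress. A higher or lower target is therefore not read as more or less RUNX activity. Zbtb7b stood at 4.85 CPM without BMCP replicate 14 and at 0.0908 CPM without GMP replicate 44. Among the 5, Spi1 stood at 121 CPM in BMCP against 410 CPM in GMP, Mpo at 14.6 CPM in BMCP against 31492 CPM in GMP and Elane at 0.962 CPM in BMCP against 7307 CPM in GMP. Mpo and Elane are also on the neutrophil progenitor marker list, and Gzmb is on the mast cell and basophil list. Cd4 had 94.1% of its GMP reads in replicate 19 and is not counted without it. Of the 8 MYB targets, 1 was higher, Kit, at 1342 CPM in BMCP against 327 CPM in GMP, which was used for sorting both populations, 5 were lower and 2 within 2-fold, with a median of -1.48, or -2.34 scaled to spike-in reads. Mpo and Elane are 2 of the 5 on this list too. Myc stood at 250 CPM in BMCP against 709 CPM in GMP and Bcl2 at 43.8 CPM in BMCP against 121 CPM in GMP. Adora2b, also lower, had no BMCP read and nearly all its GMP reads in replicate 4.

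Of the 12 genes that GFI1 is known to repress, 7 were at least 2-fold higher in BMCP, 4 lower and 1 (Hoxa9, 58 CPM in BMCP against 72.5 CPM in GMP) within 2-fold, with a median log2 ratio of 1.82, beside 25.8% higher and 21% lower over all genes. The median was 0.98 scaled to spike-in reads, with 6 higher and 5 lower, and 0.91 with BMCP 48 to 94 only. Id2, whose protein blocks DNA binding of helix-loop-helix factors, stood at 1060 CPM in BMCP against 3.73 CPM in GMP. Of the GMP value, 59.9% lay in replicate 16, without which it was 1.52 CPM. Meis1 stood at 382 CPM in BMCP against 45.4 CPM in GMP and Egr1 at 262 CPM in BMCP against 18.7 CPM in GMP. Without GMP replicate 3, Egr1 stood at 7.51 CPM in GMP. Csf1 stood at 32.5 CPM in BMCP, or 12.1 CPM without replicate 29, against 6.95 CPM in GMP, or 4.6 CPM without replicate 3. Egr2 stood at 9.28 CPM in BMCP, or 4.36 CPM without replicate 18, and had no read in GMP. Gfi1b was also among the 7. Among the 4 lower, Id1 stood at 0.89 CPM in BMCP, or 0.0240 CPM without replicate 12, against 12.5 CPM in GMP, and Cdkn1a at 10.8 CPM in BMCP, or 5.47 CPM without replicate 18, against 42 CPM in GMP. Irf8 stood at 0.202 CPM in BMCP, or 0.108 CPM without replicate 1, against 274 CPM in GMP and Csf1r at 0.0475 CPM in BMCP against 121 CPM in GMP. Irf8 and Csf1r are also on the monocyte and dendritic cell marker list, of which all 3 genes at 1 CPM or more were lower by at least 2-fold, with a summed level per cell of 0 to 11.4 CPM in BMCP and 0 to 2720 CPM in GMP. The part of cell type and of Gfi1 in these values was not tested.

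**Figure D5:**
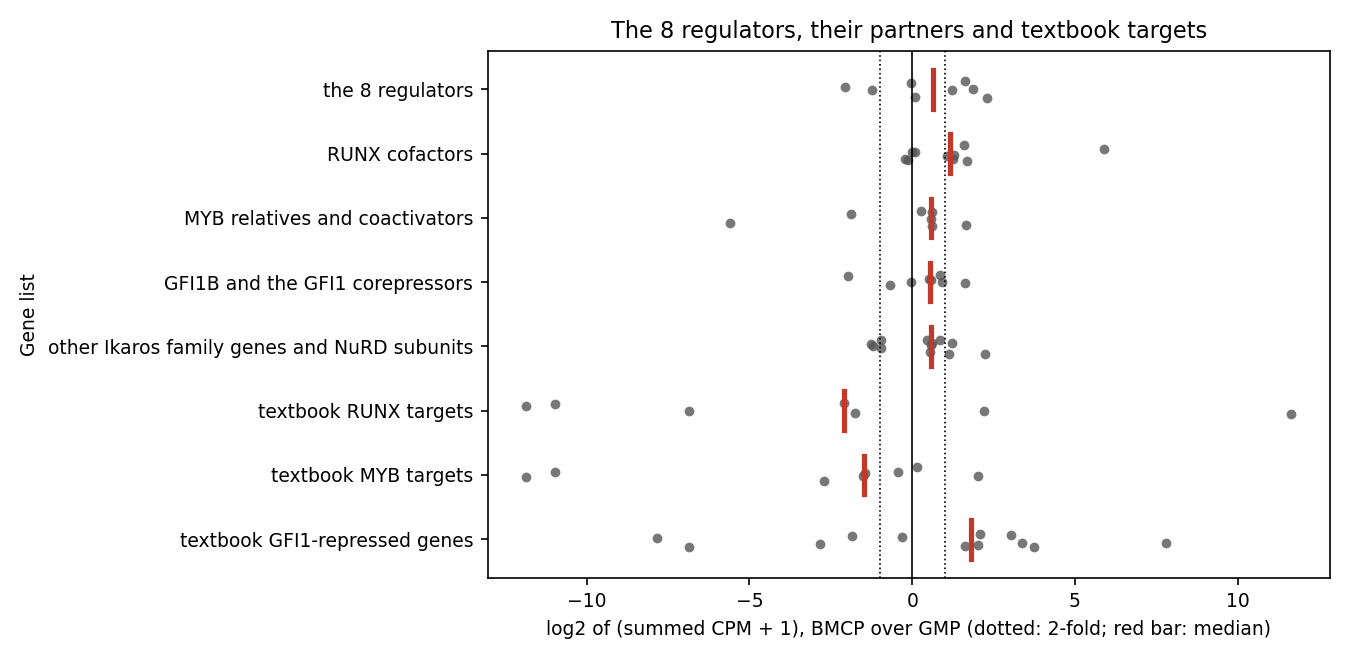
Log2 ratio, BMCP over GMP, of each gene in the 8 regulators and their partner and target lists, 1 point per gene with at least 1 CPM, with the list median marked. The RUNX cofactors lie mostly above 0 (median 1.15), and the target lists run from -11.86 to 11.65.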

How the data were processed

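The authors deposited raw read counts, 1 row per gene and 1 column per cell. GSNAP, HTSeq 0.5.3p3 and mm10 are named, per the submitters' processing notes. The release of the annotation was not given in the sources used here. Per the labels' protocols, single cells were sorted into plates, polyA RNA was reverse transcribed, ERCC spike-in RNA was present, 23 PCR cycles followed, and sequencing gave 50-base single-end reads. Without molecular identifiers, PCR copies of a molecule count more than once. Without strand marks, a gene cannot be parted from an antisense partner. Gene symbols (45229 of 46078 gene rows), exon lengths and coordinates came from GENCODE vM21 on GRCm38, which mm10 names, and promoter windows from RefSeq. No-feature, ambiguous and unaligned reads (17.6%, 3.77% and 30.4% of reads in BMCP, against 11.1%, 6.03% and 27.5% in GMP) and spike-ins stayed out of all totals.

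A cell needed at least 50000 nuclear-encoded counts, 1000 genes, no more than 10% mitochondrial reads and no more than 50% spike-in reads. That retained 89 of 94 BMCP and 41 of 47 GMP. No 2 cells were identical and no doublet caller was run. Differences are log2 of (summed CPM + 1), a pseudocount of 1, in BMCP over GMP. Shares came from cells thinned to 200000 reads, with Clopper-Pearson limits. Floors at 3 counts were 0.0356 CPM in BMCP and 0.0540 CPM in GMP. With 1 sample per population, no test was run. The code for ratios, thinning and limits was run on simulated Poisson counts around a shared profile, with set folds for some genes. Those counts lack the spread between cells seen here, so the run checks the arithmetic and not whether the limits hold for these cells. The scripts ran under Python 3.11.15 with pandas 2.3.3, numpy 2.4.6, scipy 1.17.1 and matplotlib 3.10.9.

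The 8 genes and all lists were chosen with earlier results of these data known. Genes named are the 8, list genes at least 2-fold apart or used as an example, and, for each of the 8 with a median above 0 thinned reads in either population, the 3 genes most correlated with it across cells, among genes with at least 20 CPM and found in at least 25% of cells of both populations. T and NK cell, B cell, erythroid and megakaryocyte, monocyte and dendritic cell markers and proliferation genes were also read. Of these, 2 of 3 T and NK cell, 1 of 3 B cell and 4 of 4 erythroid and megakaryocyte genes at 1 CPM or more were at least 2-fold higher in BMCP, and 0, 1 and 0 at least 2-fold lower. All 3 monocyte and dendritic cell genes were lower. Some list genes are not reported here by name.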

Additional observations from a re-analysis of the deposited data

How the results depend on the processing

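No paired analysis was possible because no label ties a cell to a mouse and cell numbers only name cells. Runx1, Cbfb, Ikzf1 and Ikzf2 stayed above 0 and Myb and Gfi1 below 0 in the 11 alternatives, which changed the weight of cells, the pseudocount, the scaling, the cell filter, the depth, the BMCP numbers used, the highest cell and the GMP used. Runx2 was above 0 in 4 and below in 7, and Runx3 above in 8 and below in 3, neither reaching 2-fold. Scaled to spike-in reads, 2 of the 8 genes instead of 4 were at least 2-fold higher: Runx1 at 1.42 and Ikzf1 at 1.01, with Ikzf2 at 0.75 and Cbfb at 0.35. That scaling moves the median of all genes to -0.76, and Cbfb then lies 1.11 and Ikzf2 1.51 above it. On that scale the median of the RUNX cofactors fell to 0.30, and those of the MYB relatives, the GFI1 corepressors and the Ikaros and NuRD list were below 0, at -0.27, -0.31 and -0.29. Without the GMP that held 10 Gata2 reads, the ratio of Runx1 was 3.26 and that of Ikzf2 3.57. The ratio of Gfi1 ran from -3.49 (BMCP 1 to 47) to -1.60 (BMCP 48 to 94). Values without the highest cell, for a block, GMP cut by Gata2 and BMCP cut by Mcpt8 or Car1, were chosen after seeing the data. So were lists with the highest cell of each population left out for each gene. In the lists, Rcor2, Ikzf4, Cd4 and Adora2b dropped under 1 CPM, and Ep300, Rcor3 and Gatad2b passed 2-fold higher in BMCP. Without a filter on low genes the shares of all genes at least 2-fold apart were 15.4% and 12.6%. Depth moved the share of BMCP with 2 or more Runx3 reads, which was 50.0% at 100000 reads per cell and 93.3% without thinning.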
